A study of Mus musculus with 14 samples.

Results

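The *miR-29a/b-1* hairpins lie on mouse chromosome 6, and their deletion defines the *MiR-29ab1-/-* mice. The genes described here are the 7 annotated neighbours *Lncpint*, *Gm27019*, *Mkln1*, *Copg2*, *Klf14*, *Mest* and *Podxl*, together with *A330023F24Rik* on chromosome 1, the host gene of the paralogous *miR-29b-2* and *miR-29c* hairpins. These 8 genes were taken by name from 55889 rows listed without DSS and from 54721 rows listed after DSS. *Lncpint* and *Gm27019* were chosen from their measured genotype difference in these mice, the other 5 neighbours by position, and *A330023F24Rik* as the host of the remaining *miR-29* copies. For all 8 genes the values between genotypes are therefore given as a description, without a test.

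RNA-seq was performed on 14 C57BL/6N mice. Without DSS there were 4 WT and 4 *MiR-29ab1-/-* mice, and 3 WT and 3 *MiR-29ab1-/-* mice had received 3.5% dextran sulfate sodium (DSS), a sulfated polysaccharide that injures the colonic epithelium, for 3 days. The *MiR-29ab1-/-* mice carry a germline deletion, so the deletion is not limited to a cell type, and WT mice of the same strain served as controls. The study's paper gives a general age range in weeks and describes its mice, unless otherwise noted, as littermates matched for age and sex. Sexes and ages per mouse are not given in the sources used here. The paper also states that a WT sample and a *MiR-29ab1-/-* sample were left out of its analysis, without saying from which experiment. The experiments without and after DSS were counted in separate tables, so DSS and experiment cannot be told apart. The libraries summed to between 14231157 and 18185020 reads in the mice without DSS, and to between 20076719 and 23153149 in those given DSS.

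The labels name the tissue as small intestinal crypts, whereas the methods of the study describe colon. A list of 7 colon epithelium markers summed to between 1811 and 14379 CPM (counts per 1000000 reads, scaled within each table) in the 14 mice, and a list of 9 small intestine markers summed to between 171 and 439 CPM. Every marker of either list had reads in each of the 4 groups, except *Apoa4*, which had none in the *MiR-29ab1-/-* DSS mice. *Apoa4* is a lipoprotein gene of the small intestinal list. The levels differed, with the median colon marker at 159 to 241 CPM across the groups and the median small intestinal marker at 0.314 to 1.81 CPM. Group means of the sum were 1.83 to 2.58 CPM for 6 smooth muscle markers. For 6 general epithelial markers they were 8995 to 14793.5 CPM. The origin of the tissue was not tested. In this bulk RNA a lower level can reflect fewer cells of a type or less RNA per cell, which cannot be told apart.

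MicroRNAs of the *miR-29* family are known for repressing collagen and other matrix transcripts, and in immune cells for restraining interferon-γ production. A primary transcript is cut in the nucleus into a short hairpin, which is then diced to the mature miRNA, and bases 2 to 8 of the mature strand, the seed, pair with target mRNAs. *Lncpint* is a p53-induced long non-coding RNA reported to bind Polycomb repressive complex 2 (PRC2), the enzyme complex that methylates lysine 27 of histone H3. *Mest*, *Copg2* and *Klf14* belong to an imprinted domain, in which one parental allele is expressed preferentially.

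The mature sequences show what the deletion removed and what the copies on chromosome 1 still encode. The seed is in capitals in each, and the sequences are those of RefSeq on GRCm38.p6.
miR-29a-3p: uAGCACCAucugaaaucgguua
miR-29b-3p: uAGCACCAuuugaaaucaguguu
miR-29c-3p: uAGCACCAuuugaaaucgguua
All 3 share the seed AGCACCA. Counted from the 5′ end, miR-29a-3p and miR-29c-3p differed by a single substitution, C10U, outside the seed. Between miR-29b-3p and miR-29c-3p there were 3 substitutions (A18G, G21U and U22A), and miR-29b-3p was 1 base longer. The mature miR-29b-3p is encoded identically by *Mir29b-1* in the deleted pair and by *Mir29b-2* on chromosome 1.

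The 4 hairpins are shown with the mature 3p arm in capitals, the first pair from the deleted locus and the second pair from inside *A330023F24Rik*.
Mir29a hairpin: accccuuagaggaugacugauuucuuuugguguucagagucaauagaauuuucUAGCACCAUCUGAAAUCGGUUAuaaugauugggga
Mir29b-1 hairpin: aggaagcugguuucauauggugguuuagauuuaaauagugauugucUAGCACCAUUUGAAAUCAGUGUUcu
Mir29b-2 hairpin: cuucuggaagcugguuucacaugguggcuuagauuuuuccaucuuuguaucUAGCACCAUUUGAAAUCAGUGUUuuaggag
Mir29c hairpin: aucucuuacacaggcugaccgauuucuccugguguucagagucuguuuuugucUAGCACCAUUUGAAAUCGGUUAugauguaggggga
*Mir29a* (chr6:31062660-31062747, minus strand) and *Mir29b-1* (chr6:31063023-31063093, minus strand) are 275 bases apart. *Mir29b-2* (chr1:195037040-195037120, plus strand) and *Mir29c* (chr1:195037547-195037634, plus strand) are 426 bases apart. Both chromosome 1 hairpins lie in an exon of 1 of the 4 annotated *A330023F24Rik* transcripts (GENCODE vM21, GRCm38), whereas *Mir335* lies in an intron of 7 of the 11 *Mest* transcripts and in an exon of none.

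These libraries hold almost no reads assigned to the hairpins themselves, so the deletion could not be checked on the targeted genes. *Mir29a*, *Mir29b-2* and *Mir29c* had 0 reads in all 14 mice, which allows up to 3 reads a library, or at most 0.215 CPM. *Mir29b-1* had 1 read in each of 2 *MiR-29ab1-/-* mice without DSS and 0 in the other 12 mice, and it shares 2 bases with *Gm27019*. *Mir335* had 1 read in 1 WT mouse. Levels of mature miR-29b and miR-29c cannot be read from these counts.

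*Lncpint* and *Gm27019*, the long non-coding RNAs nearest to the deleted pair, were nearly silent in WT mice and abundant in *MiR-29ab1-/-* mice, both without and after DSS. *Lncpint* (ENSMUSG00000044471, chr6:31082565-31220488, minus strand) ends 19.5 kb upstream of the hairpins and starts 157.4 kb from them, so that its transcription runs toward them. Its 4 WT mice without DSS held 11, 7, 17 and 23 reads, and the 4 *MiR-29ab1-/-* mice held 1386, 2889, 1805 and 2803 reads. The groups did not overlap, and the lowest knockout mouse held 1386 reads against 23 in the highest WT mouse.

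The level of *Lncpint* was 0.811 ± 0.381 CPM in WT (SD, n = 4) and 146 ± 50.3 CPM in *MiR-29ab1-/-* mice (SD, n = 4). The fitted difference was 7.47 on the log2 scale (SE 0.39, 95% interval 6.59 to 8.36). As a ratio of summed reads per library size, *Lncpint* was 178 times higher, with a counting interval of 138 to 235 that covers counting error only. After DSS the WT mice held 6, 14 and 10 reads and the *MiR-29ab1-/-* mice 1135, 1144 and 706 reads, again without overlap. Over all genes, the genotypes did not overlap for 2.03% without DSS and for 11.6% after DSS. The *Lncpint* difference after DSS was 6.81 (SE 0.42, 95% interval 5.81 to 7.80), between 0.437 ± 0.170 CPM (SD, n = 3) and 49.4 ± 17.4 CPM (SD, n = 3).

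*Gm27019* (ENSMUSG00000097998, chr6:31063092-31063495, minus strand) is annotated as a single transcript of 404 bases whose 3′ end overlaps *Mir29b-1* by 2 bases. It sits directly upstream of the hairpins on the same strand. Without DSS the WT mice held 0, 2, 0 and 0 reads and the *MiR-29ab1-/-* mice 284, 411, 273 and 394 reads. The summed ratio was 792, and the 2 WT reads leave a counting interval of 219 to 6551. After DSS all 3 WT mice had 0 reads, and the *MiR-29ab1-/-* mice had 203, 237 and 151. Against a floor of 3 reads in each WT library this is at least 72.6-fold higher.

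A further transcript, without a gene name, was listed by the authors at chr6:31050635-31062626 on the plus strand, and it stops 34 bases short of *Mir29a*. It is no annotated gene and was listed only in the table without DSS. WT mice held 2, 1, 6 and 0 reads there, and *MiR-29ab1-/-* mice 3863, 5471, 3288 and 4713 reads. The fitted difference was 11.05 (SE 0.40), given without a test because the transcript passed the filter on low counts only through the group in which it was high. It lies on the opposite strand to *Lncpint*, *Gm27019* and the hairpins, and whether reads were counted by strand is not given in the sources used here.

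Per kilobase of transcript, the order in *MiR-29ab1-/-* mice without DSS was *Gm27019* (55.5 CPM per kb), the unnamed transcript (23.7) and *Lncpint* (19.8). Read ratios between these transcripts also varied among the knockout mice. In the 4 mice without DSS there were 4.88, 7.03, 6.61 and 7.11 *Lncpint* reads for each *Gm27019* read, and in the 3 mice after DSS 5.59, 4.83 and 4.68. The unnamed transcript had 11.96 to 13.6 reads for each *Gm27019* read across the 4 mice, and 1.68 to 2.79 reads for each *Lncpint* read, a ratio of 2.05 ± 0.502 (SD, n = 4). Because the genotypes form separate clusters for *Lncpint*, no correlation over mice and no genes most like it are given.

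**Figure D1:**
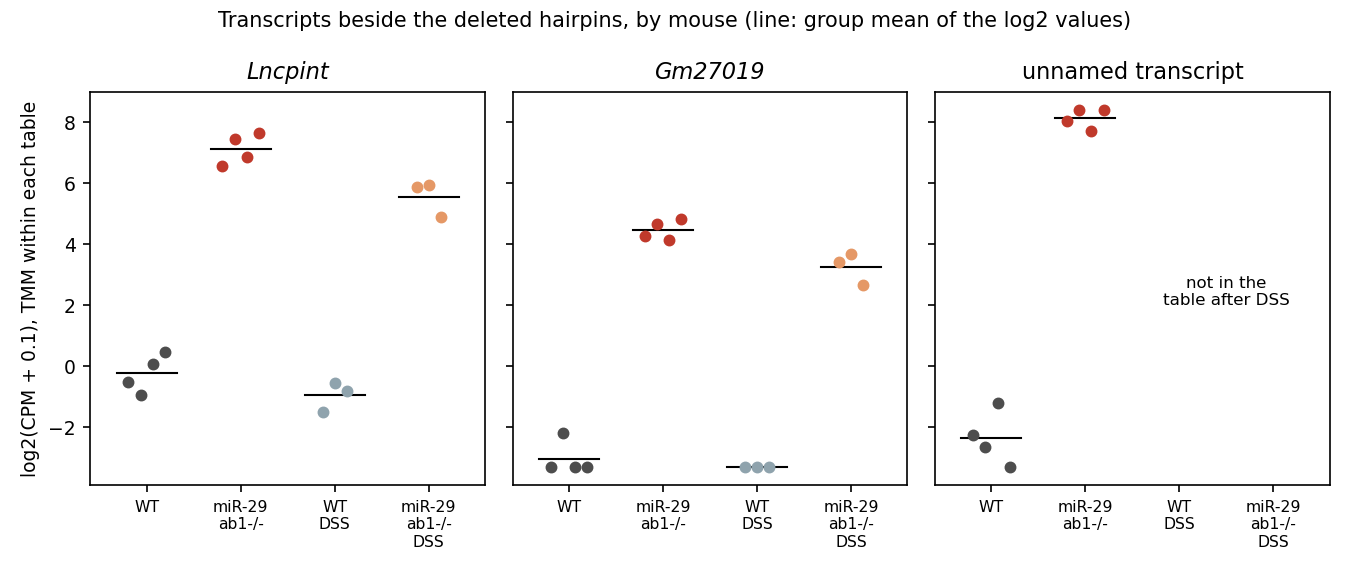
Each point is 1 mouse and the y axis is log2(CPM + 0.1), scaled within each table, so a mouse with 0 reads sits at the bottom of its panel. The lines are the means of the log2 values in 4 mice a group without DSS and 3 after DSS, and all knockout mice lie above all WT mice for *Lncpint*, *Gm27019* and the unnamed transcript.

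Both *Lncpint* and *Gm27019* passed the adjusted p threshold of 0.05 in each genotype comparison. They were chosen on this difference, so the count carries no information of its own. Over all genes, 3 of 15441 (0.0194%) were called without DSS, all higher, and 2 of 14908 (0.0134%) after DSS, both higher. The gene counted beside them without DSS was the unnamed transcript. Its call carries no information either, as it passed the filter on low counts only through the group in which it was high. The number called after DSS rested on single mice, with 0 genes called without WT DSS mouse 2 or without *MiR-29ab1-/-* DSS mouse 1, 1 gene without WT DSS mouse 1 or 3, and 93 without *MiR-29ab1-/-* DSS mouse 3. The *Lncpint* difference itself stayed between 6.52 and 7.08 in those fits.

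Of the genes annotated inside the span of *Lncpint*, only *Gm13835* was abundant enough to be tested, and it was not called between genotypes. This processed pseudogene on the same strand differed by -0.070 without DSS (SE 0.15, adjusted p = 1.00) and by 0.33 after DSS (SE 0.12, unadjusted p = 0.026, adjusted p = 0.655). Reads of a processed pseudogene can be shared with its parent gene, so its level is uncertain. *2210408F21Rik*, which starts divergently at the 5′ end of *Lncpint* and overlaps it by 138 bases on the other strand, had no more than 5 reads in any mouse.

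The 5 remaining chromosome 6 neighbours showed no difference between genotypes of the size seen for *Lncpint*. *Mkln1* (chr6:31398735-31516811, plus strand), which encodes muskelin, a subunit of the CTLH ubiquitin ligase, begins 335.6 kb from the hairpins beyond the start of *Lncpint*. WT mice without DSS held 1304, 1160, 1240 and 1381 reads and *MiR-29ab1-/-* mice 1011, 1122, 979 and 909. On the CPM scale the genotypes were close but did not overlap, at 71.6 ± 3.74 in WT and 65.9 ± 2.97 in knockout mice (SD, n = 4 each). The difference was -0.12 (SE 0.079, 95% interval -0.29 to 0.055). Groups without overlap were found for 313 of 15441 genes, or 2.03%. After DSS the *Mkln1* difference was 0.065 (95% interval -0.16 to 0.30) and the groups overlapped.

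*Copg2* (chr6:30747554-30896794, minus strand) encodes a γ subunit of the COPI coat of Golgi vesicles and lies on the other side of the hairpins. WT mice without DSS held 948, 1088, 1016 and 1186 reads and *MiR-29ab1-/-* mice 835, 869, 919 and 812. These correspond to 59.8 ± 6.70 and 56.4 ± 2.52 CPM (SD, n = 4 each), a difference of -0.084 (95% interval -0.30 to 0.13) with overlapping groups. After DSS the levels were 60.7 ± 2.99 and 60.0 ± 0.740 CPM (SD, n = 3 each), a difference of -0.017 (95% interval -0.21 to 0.18). For *Copg2* and *Mkln1*, the more abundant per kilobase of the 5 neighbours chosen by position, the intervals bound any genotype difference to 0.30 or less in either direction on the log2 scale.

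The paternally expressed gene *Mest*, an α/β-hydrolase, was barely expressed. It held 14, 4, 12 and 8 reads in WT and 14, 9, 10 and 8 in *MiR-29ab1-/-* mice without DSS, and 6, 17 and 10 against 6, 15 and 21 after DSS. *Podxl*, which encodes the sialomucin podocalyxin of podocytes and endothelium, held 11, 25, 14 and 8 reads in WT and 15, 10, 12 and 31 in *MiR-29ab1-/-* mice, and after DSS 14, 14 and 13 against 18, 28 and 8. For both genes the groups overlapped in each experiment. At this depth the intervals were wide, from -0.61 to 1.29 for *Mest* and from -0.65 to 1.58 for *Podxl* without DSS. Single mice moved the *Podxl* value from -0.059 (without *MiR-29ab1-/-* mouse 4) to 0.90 (without WT mouse 2). A sum of 7 endothelial markers, which could accompany *Podxl*, was 9.90 to 15.3 CPM in WT and 14.9 to 18.3 CPM in knockout mice without DSS. Only 2 of the 7 passed the filter, *Vwf* with a difference of 0.53 and *Pecam1* with -0.29, and neither was called. The part of endothelium in the *Podxl* values was not tested.

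*Klf14* (chr6:30956023-30959078, minus strand), the maternally expressed Krüppel-like factor between *Copg2* and the hairpins, had 0 reads in all 14 mice. It was the only one of the 8 genes that failed the filter on low counts, and 7 entered each fit. The *Copg2* and *Mest* annotations overlap tail to tail by 912 bases, and *Mkln1* overlaps the antisense gene *Mkln1os* by 39 bases, so reads in these stretches can be assigned to either gene where strand was not used.

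Among the other annotated or unnamed genes within 1 Mb of the hairpins, 47 were listed without DSS, 26 had reads and 10 passed the filter. None was called apart from the unnamed transcript, whose call carries no information because it passed the filter only through the group in which it was high. Of the 9 others, *Nrf1*, *Rncr4*, *Ube2h*, *Zc3hc1*, *Klhdc10*, *Tmem209*, *Cep41* and *Gm13835* had differences of -0.13 (*Cep41*) to 0.073 (*Nrf1*) and adjusted p of 1.00. After DSS, 9 were tested and none was called by edgeR's quasi-likelihood test, 1 had an unadjusted p under 0.05, and DESeq2 called 0. The median difference of the 10 genes was 0.024 without DSS, beside -0.0016 over all genes.

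**Figure D2:**
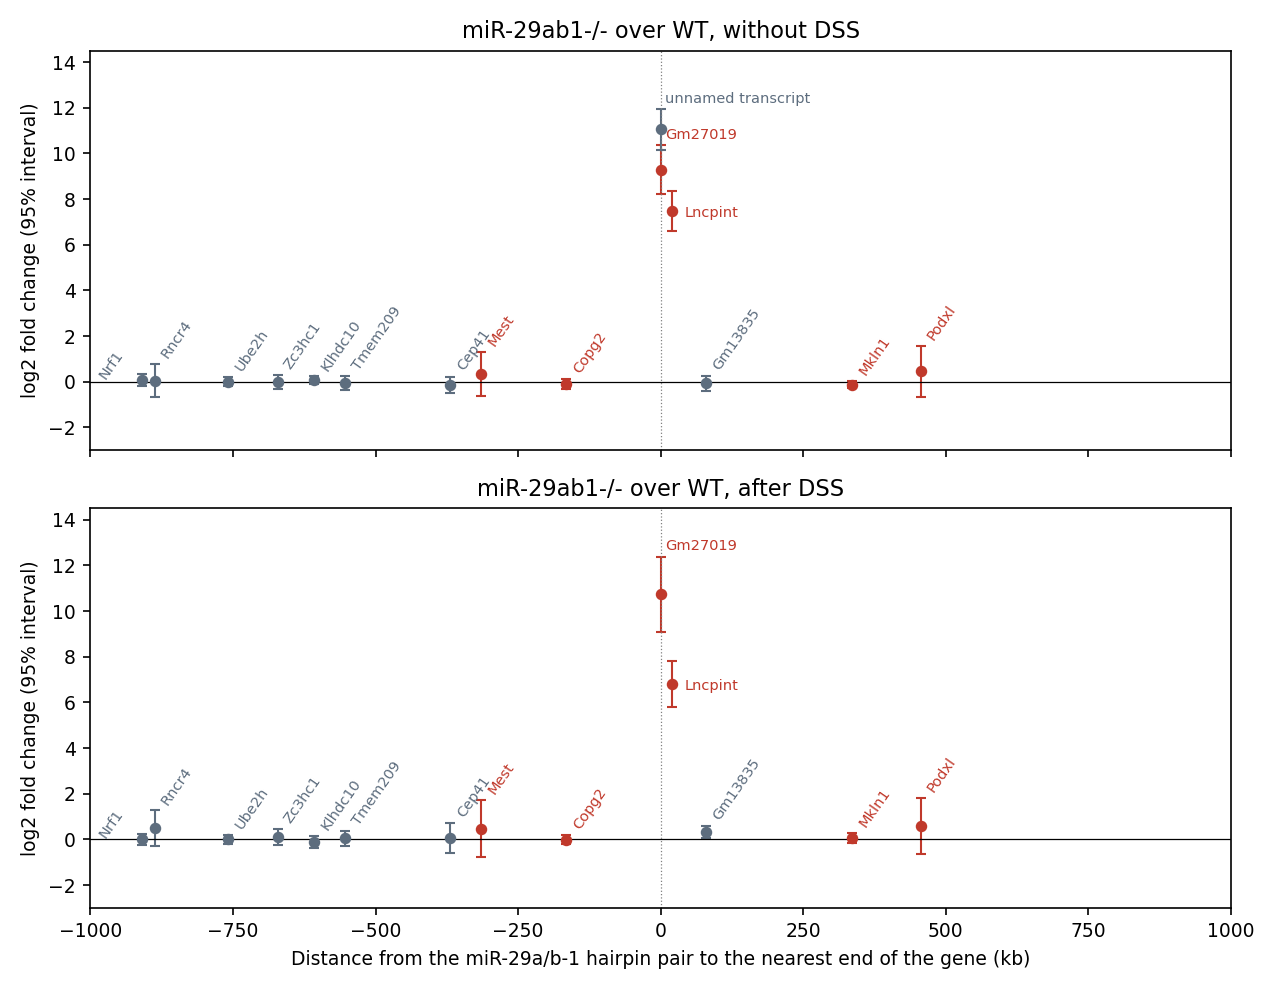
The x axis is the distance in kb from the hairpin pair to the nearest end of each gene within 1 Mb that was tested and is named in the text, and the y axis the log2 fold change of *MiR-29ab1-/-* over WT mice with its 95% interval, without DSS (upper panel) and after DSS (lower panel). Red marks the tested neighbours *Lncpint*, *Gm27019*, *Mkln1*, *Copg2*, *Mest* and *Podxl* and grey the others, and only *Lncpint*, *Gm27019* and, without DSS, the unnamed transcript lie above 6. The value of *Gm27019* after DSS is a fit to WT mice with 0 reads and depends on the prior count.

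A match to the *miR-29* seed was searched in annotated 3′ UTRs as the letters TGGTGCT (the complement of the seed, sense strand only), which also occur within the longer match TGGTGCTA. Of 21164 genes with a 3′ UTR, 15.7% held TGGTGCT and 3.31% held TGGTGCTA in at least 1 transcript. As long non-coding RNAs, *Lncpint*, *Gm27019* and *A330023F24Rik* were not searched. Among the protein-coding genes described, *Copg2* and *Klf14* held no such site. *Mkln1*, *Mest* and *Podxl* each held 1, shown with the match in capitals because the deleted miRNAs could pair with it by seed.
Mkln1 site: actggtagactTGGTGCTgtaggaatttg
Mest site: ctaagagcaaaTGGTGCTgaatacttttt
Podxl site: ttccctcagtcTGGTGCTtaattgcatcc
None of the 3 held the longer match, and the longest annotated 3′ UTR of *Mkln1* spans 9065 bases in which such letters can occur. A match is a description and not a site of regulation.

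*A330023F24Rik* (ENSMUSG00000096929, chr1:194976375-195037904, plus strand) was examined because its RNA is the precursor of the *miR-29b-2* and *miR-29c* hairpins that *MiR-29ab1-/-* mice retain. Its genotype groups overlapped in both experiments. WT mice without DSS held 175, 158, 192 and 158 reads and *MiR-29ab1-/-* mice 108, 237, 88 and 115. Thus 3 of the 4 knockout mice lay below all WT mice on the CPM scale and the fourth, mouse 2, above all of them. The levels were 9.61 ± 0.767 and 8.88 ± 3.85 CPM (SD, n = 4 each), so the relative spread was 7.98% in WT and 43.4% in knockout mice.

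The genotype difference for *A330023F24Rik* was -0.11 without DSS (SE 0.26, 95% interval -0.68 to 0.46), and between -0.44 (without knockout mouse 2) and 0.063 (without knockout mouse 3) when single mice were left out. After DSS the WT mice held 30, 25 and 18 reads and the *MiR-29ab1-/-* mice 48, 69 and 13, which is 1.05 ± 0.201 and 2.22 ± 1.57 CPM (SD, n = 3 each). Here 2 knockout mice were above and 1 was below all WT mice. The difference was 1.06 (SE 0.60) with an interval of -0.32 to 2.44, and 0.49 without *MiR-29ab1-/-* DSS mouse 2 or 1.53 without *MiR-29ab1-/-* DSS mouse 3. It was -0.95 without both *MiR-29ab1-/-* DSS mice 1 and 2, whose libraries stood apart as described with the DSS results. The sum over its transcripts is counted here, and only 1 of 4 contains the hairpins, so transcript-specific levels are not known. It overlaps *Cd46* on the other strand by 1079 bases, a stretch that includes both hairpins.

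The 3 genes with the level most like that of *A330023F24Rik* over the 8 mice without DSS, out of 15440, were *1810019D21Rik* (Pearson r = 0.96), *Lsg1* (r = 0.95) and *Ulk4* (r = 0.93). They were selected as the highest values. In the 6 mice after DSS, which the selection did not use, the same genes gave r = -0.87, 0.077 and -0.86, so the likeness was not seen again.

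**Figure D3:**
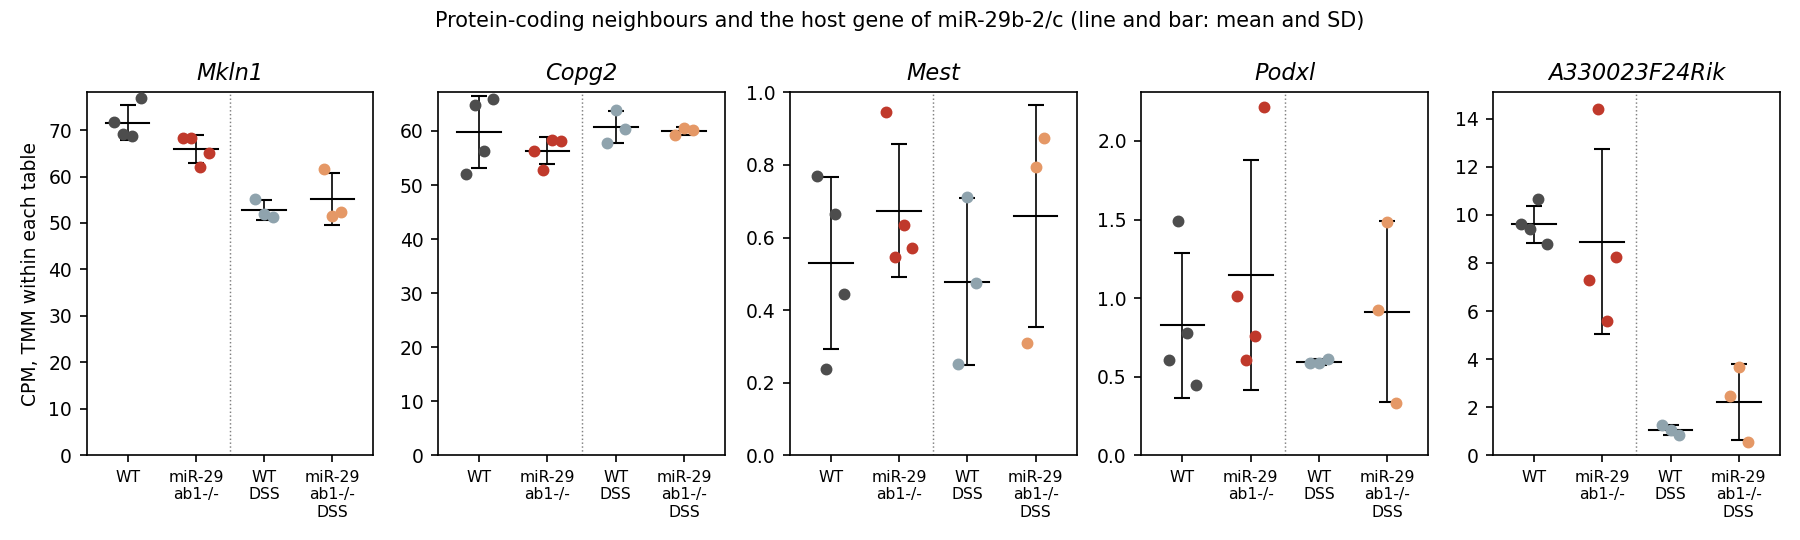
Each point is 1 mouse and the y axis is CPM from 0, with the mean and SD of 4 mice without DSS or 3 after DSS. The dotted line separates the experiments, which were scaled separately, so levels compare only within an experiment. The WT and *MiR-29ab1-/-* groups overlap in each panel except for *Mkln1* without DSS.

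The comparison of mice after and without DSS was not used to choose the genes and was tested over 16196 genes listed in both tables, on a common scale. *A330023F24Rik* was lower after DSS in both genotypes. WT mice held 8.81 ± 0.598 CPM without DSS (SD, n = 4) and 1.19 ± 0.229 CPM after it (SD, n = 3), a change of -2.88 (SE 0.49, adjusted p = 5.5e-04). *MiR-29ab1-/-* mice held 8.14 ± 3.58 CPM without DSS (SD, n = 4) and 2.51 ± 1.78 CPM after it (SD, n = 3), a change of -1.71 (SE 0.46, adjusted p = 0.0074). All DSS mice of a genotype were below all mice of that genotype without DSS. Such a lack of overlap, in either direction, was found for 43% of all genes in WT and 48.1% in *MiR-29ab1-/-* mice. The call held in each fit that left out 1 mouse, with adjusted p up to 0.0048 in WT and 0.023 in knockout mice. The test of the difference between these changes did not pass, at 1.17 in favour of the knockout mice (SE 0.64, 95% interval -0.20 to 2.54, unadjusted p = 0.089, adjusted p = 0.985). Without *MiR-29ab1-/-* DSS mice 1 and 2, which leaves 1 knockout DSS mouse, this difference was -0.85.

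In *MiR-29ab1-/-* mice, *Lncpint* and *Gm27019* were also lower after DSS. *Lncpint* changed by -1.26 (SE 0.32, adjusted p = 0.0063), with 134 ± 45.7 CPM without DSS (SD, n = 4) against 55.9 ± 19.7 CPM (SD, n = 3). No DSS mouse reached the range without DSS, a lack of overlap found for 48.1% of all genes in *MiR-29ab1-/-* mice. *Gm27019* changed by -0.90 (SE 0.30, adjusted p = 0.027), with 20.5 ± 4.56 CPM (SD, n = 4) against 11.04 ± 3.6004 CPM (SD, n = 3). The *Gm27019* call was lost without *MiR-29ab1-/-* mouse 2 or 4 or without *MiR-29ab1-/-* DSS mouse 1 or 3, with adjusted p up to 0.108. In WT mice *Lncpint* was at 6 to 23 reads a mouse with or without DSS (-0.60, SE 0.63, adjusted p = 0.481). *Gm27019* was at or under the floor in both WT groups, so no fold between them is interpreted.

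*Copg2* was higher after DSS by 0.32 in WT (SE 0.096, adjusted p = 0.017) and by 0.39 in *MiR-29ab1-/-* mice (SE 0.096, adjusted p = 0.0038). Both calls depend on the scaling. With library size as the only scaling, the changes were 0.087 (adjusted p = 0.508) and 0.027 (adjusted p = 0.840), and the median of all genes shifted to -0.26 and -0.39. The WT call was also lost without WT mouse 3 (adjusted p = 0.051). *Mkln1*, *Mest* and *Podxl* were not called in either genotype, at -0.14 and 0.048, 0.15 and 0.28, and -0.17 and -0.031 in WT and *MiR-29ab1-/-* mice. With library size alone *Mkln1* was called lower in both, at -0.38 (adjusted p = 0.0092) and -0.32 (adjusted p = 0.018).

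In WT mice 2 of the 7 tested genes were called, 1 higher and 1 lower, beside 37.9% of all genes. In *MiR-29ab1-/-* mice 4 of the 7 were called, 1 higher and 3 lower, beside 45.6% of all genes. With so few genes, nothing is read from the gap between these counts and the shares of all genes. The median change of the 7, which includes a fitted value of *Gm27019* in WT, was -0.17 and -0.031, beside -0.024 and -0.029 over all genes. No gene of any kind was called for a DSS response that differed between genotypes (0% of 16196 in edgeR, 0 in DESeq2), whereas 641 had an unadjusted p under 0.05, none of them among the 7.

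Among the mice after DSS, *MiR-29ab1-/-* DSS mice 1 and 2 stood apart in their mitochondrial share of reads, at 14.8% and 20.2%, against 6.16% to 8.82% in the WT DSS mice and 7.44% in *MiR-29ab1-/-* DSS mouse 3. Without DSS this share was 5.72% to 13.9%. The same 2 mice held the higher *A330023F24Rik* values (48 and 69 reads against 13) and the higher *Lncpint* values of their group. With both left out, 1 knockout DSS mouse remained, with 13 *A330023F24Rik* reads against 18 to 30 in the WT DSS mice. *A330023F24Rik* then differed between genotypes after DSS by -0.95 in place of 1.06. The difference of its DSS changes was -0.85 in place of 1.17. This change of sign follows from the 1 mouse left, which lay below all WT DSS mice. Its DSS change in knockout mice was then -3.70, that of *Lncpint* -1.99 and that of *Gm27019* -1.51. The knockout DSS mice lay on both sides of the WT DSS mice, so no direction of a genotype difference in *A330023F24Rik* after DSS is read. The part of the mitochondrial share of the 2 mice was not tested.

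Several other measures moved with DSS in the same libraries. Of 1203 genes annotated as long non-coding RNA, 31.6% were called lower and 4.57% higher in WT mice, and 33.1% lower and 5.65% higher in *MiR-29ab1-/-* mice, with medians of -0.68 and -0.69. For 13446 protein-coding genes 15.6% were called lower in WT and 21.2% in knockout mice, with medians of 0.032 and 0.028. Long non-coding RNA took 0.680% to 0.910% of reads without DSS and 0.434% to 0.451% after DSS. *A330023F24Rik*, *Lncpint* and *Gm27019* are of this class, and its part in their changes was not tested.

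Marker lists shifted as well. All 6 general epithelial markers were called higher after DSS in both genotypes, with *Krt8*, a simple-epithelium keratin, at 1.12 and 1.24. *Muc2*, the goblet cell mucin, differed by 6.58 in WT (SE 0.66, adjusted p = 2.4e-05) and by 6.23 in knockout mice (SE 0.65, adjusted p = 2.0e-05). The B cell receptor components *Cd79a* and *Cd79b* were called lower in *MiR-29ab1-/-* mice, at -2.17 (SE 0.72, adjusted p = 0.024) and -2.49 (SE 0.88, adjusted p = 0.032). Endothelial markers summed to 9.90 to 18.3 CPM without DSS and 3.595 to 8.21 CPM after DSS. Of 7 listed, 4 were tested, and only *Vwf* was called, lower in both genotypes. The other 3 tested were not called, and 1 of the 4 changes was above 0 in each genotype. Between genotypes without DSS, the sum of 5 enteroendocrine markers was 174 to 257 CPM in WT and 101 to 133 CPM in *MiR-29ab1-/-* mice, with all 5 differences below 0. None of the 5 was called by edgeR (smallest adjusted p = 0.097), 3 had an unadjusted p under 0.05, and DESeq2 called 2. The part of these cell types in the changes of the 8 genes was not tested.

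**Figure D4:**
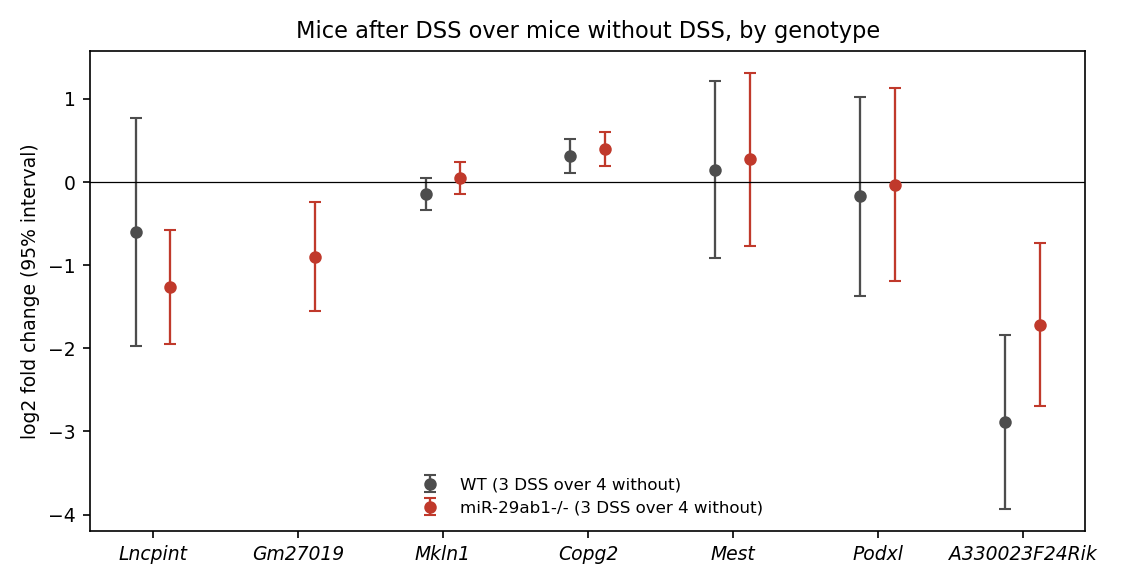
The y axis is the log2 fold change of 3 mice after DSS over 4 mice without DSS with its 95% interval, for WT (grey) and *MiR-29ab1-/-* mice (red). *A330023F24Rik* lies below 0 in both genotypes and *Lncpint* and *Gm27019* in knockout mice. *Copg2* lies above 0 at this scaling, and *Gm27019* in WT is left out because both groups were at or under the floor.

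Near the locus, *Gm13835* was higher after DSS by 0.73 in WT (SE 0.15, adjusted p = 0.0017) and by 1.14 in *MiR-29ab1-/-* mice (SE 0.15, adjusted p = 3.6e-05), opposite in direction to *Lncpint*, within whose span it lies. *Klhdc10*, a Kelch-domain ubiquitin ligase adaptor, was called lower in knockout mice at -0.34 (SE 0.091, adjusted p = 0.0071). The other genes named above within 1 Mb, *Nrf1*, *Rncr4*, *Ube2h*, *Zc3hc1*, *Tmem209* and *Cep41*, were not called in either genotype.

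*Lncpint* has been linked to p53 and PRC2, so lists of 12 PRC2 genes and 16 p53 target genes were examined across the genotypes and DSS. Between genotypes edgeR called none of either list, without or after DSS. An unadjusted p under 0.05 was reached by 1 PRC2 and 0 p53 target genes without DSS, and by 0 and 2 after DSS, and DESeq2 called 0. The median difference of the PRC2 genes was -0.020 without DSS and -0.053 after DSS, and that of the p53 targets 0.023 and -0.048, beside -0.0016 and -0.0051 over all genes. *Ezh2*, the main methyltransferase of PRC2, differed by -0.010 (SE 0.098) without DSS, and *Cdkn1a*, the p21 cell cycle inhibitor, by 0.14 (SE 0.18).

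Between mice after and without DSS, genes of both lists were called in both directions. In the PRC2 list 1 gene was called higher and 3 lower in WT, and 1 higher and 5 lower in *MiR-29ab1-/-* mice, beside 37.9% and 45.6% of all genes called. *Phf1*, an accessory subunit, was the higher one (0.52 and 0.58), and the core subunits *Rbbp4* and *Ezh2* and the accessory subunit *Phf19* were lower in both, with *Phf19* at -0.79 and -1.34. In the p53 list 3 were higher and 3 lower in WT, and 4 higher and 5 lower in knockout mice, beside the same shares of all genes. Nothing about these lists as groups is read from the counts. *Pmaip1*, which encodes the pro-apoptotic protein Noxa, was at 1.31 (adjusted p = 3.9e-05) and 1.40 (adjusted p = 1.4e-05), and *Eda2r*, a TNF receptor family gene, at -2.54 (adjusted p = 0.0041) and -2.89 (adjusted p = 0.0017). For the interaction of genotype and DSS edgeR and DESeq2 called 0 genes in either list, and 0 PRC2 genes and 1 p53 target had an unadjusted p under 0.05.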

How the data were processed

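Total RNA of intestinal tissue from 14 mice was sequenced by the study from directional libraries. The authors deposited raw read counts per gene in 2 tables, without and after DSS, of which 418 and 189 rows are transcripts outside the annotation, numbered as new and taken here as assembled. The submitters' processing notes name HISAT2, an aligner, and DESeq2. The tool that counted, the versions and the use of strand are not given in the sources used here. The deposited tables also hold 14 FPKM columns and the authors' own comparison (fold changes and p-values), none of which was used.

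Counts were tested with edgeR 4.0.16 (R 4.3.3, TMM, quasi-likelihood F test, Benjamini-Hochberg adjustment over all genes tested, threshold 0.05). Genes were kept by filterByExpr with a minimum count of 10 and a total of 15. Fold changes used the default prior count of edgeR, log2 CPM for correlations between mice a prior count of 2, and intervals are 95%. Genotype was tested within each table. DSS and the interaction were tested in 1 model over 54189 genes in both tables, of which 52631 had the same gene model, including all 8 genes reported. CPM is TMM-scaled within a table, or over both for DSS. The p-values measure the spread between mice of one experiment. DESeq2 1.42.0, other scalings and filters and single-mouse omissions were alternatives. Each fit was tested on simulated data.

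The mice after DSS could be mapped to groups but not to the numbers in their titles, so their numbers are those of the columns. The study's paper gave the DSS dose and time. The genes, lists and rules were chosen with earlier results of these data known. Named genes were the 8 genes, their miRNAs, called genes within 1 Mb and the smallest p-values there, the 3 genes most like *A330023F24Rik*, and called or example genes of the lists. Coordinates are those of the files and equal GENCODE vM21 (GRCm38) for all 8 genes. Hairpin and mature sequences are from RefSeq (GRCm38.p6). Results of some other genes are not reported here.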

Additional observations from a re-analysis of the deposited data

Results flagged for a closer look

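The CPM of *Gm27019* in WT mice without DSS set 1 mouse apart from the other 3, at 0.119 CPM in WT mouse 2, from 2 reads, against 0 in the rest. With 0 reads in the rest, the gap spans the whole range of the group whatever value the 1 mouse has. That it exceeds Dixon's 95% critical value was therefore fixed by the zeros and carries no information. Both reads are under the floor of 3.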

How the results depend on the processing

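Of 850 alternative values, 757 kept their direction and their side of the threshold or stayed near the reported value, 61 moved further, 24 reversed, 7 lost a call and 1 gained one. A genotype difference that was not called could change sign and be counted as near or as moved, not as reversed. The differences of *Lncpint* and *Gm27019* between genotypes kept their direction in every alternative run. Between genotypes without DSS, 11 genes were called with no filter on low counts and 27 by DESeq2, and after DSS 46 and 66. With library size as the only scaling, chosen after seeing the data, 5 genes within 1 Mb were called for DSS in WT, *Mkln1* in *MiR-29ab1-/-* mice was at -0.32, *Mest* at -0.090 in WT and -0.084 in *MiR-29ab1-/-* mice, and the interaction at -0.060 for *Copg2* and -0.034 for *Podxl*. The scaling moved the median of all genes to -0.26 in WT and -0.39 in *MiR-29ab1-/-* mice. Within 5 Mb, 21 genes were called for DSS in WT and 27 in *MiR-29ab1-/-* mice, as more genes were tested. Leaving out both *MiR-29ab1-/-* DSS mice of high mitochondrial share, also chosen after seeing the data, gave 1 gene called between genotypes after DSS, which was 1 of the 7 genes and 1 of those within 1 Mb, and 3581 genes for DSS in *MiR-29ab1-/-* mice. *Mkln1* was then at -0.0071 for DSS in *MiR-29ab1-/-* mice, and the interaction at -1.30 for *Podxl* and -0.85 for *A330023F24Rik*.

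Leaving out single mice gave 3 to 5 genes called between genotypes without DSS, 5 without WT mouse 2. After DSS it gave 0 to 93 genes, 0 to 2 of the 7 genes described and 0 to 2 genes within 1 Mb. It gave 1 to 2 of the 7 genes for DSS in WT, and 0 to 1 genes for the interaction, 1 without *MiR-29ab1-/-* DSS mouse 3. For genes not called, the DSS change in WT ranged from -0.24 to 0.46 for *Mest* and -0.37 to 0.27 for *Podxl*. For *Gm27019* the WT fits gave -2.63 to 0 (0 without WT mouse 2, which held its only WT reads). These fits compare at most 2 reads with 0, under the floor, so no DSS change is read from them. In *MiR-29ab1-/-* mice the DSS change ranged from -0.034 to 0.12 for *Mkln1* and -0.54 to 0.48 for *Podxl*. The interaction ranged from -0.90 to 1.73 for *Gm27019*, -0.18 to 0.54 for *Mest* and -0.40 to 0.66 for *Podxl*. The *Gm27019* interaction rests on the same WT reads, so nothing is read from it. Causes were not tested.

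With the replicate number as a block, 3 genes were called between genotypes without DSS, the same 3. Same-numbered mice did not deviate together (r = -0.030, 0.15, -0.19 and -0.13), so the numbers do not pair the mice. After DSS the column numbers match no number in the labels of those mice, and mice of the same column number did not deviate together (r = -0.061, 0.051 and 0.041). A block on them, added after seeing the data, left 1 gene called between genotypes, which was 1 of the 7 genes and within 1 Mb. Depth limited *Mest*, *Podxl*, *Klf14* and *Lncpint* in WT, where 3 reads are 0.125 to 0.215 CPM.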
